A study of Mus musculus with 3 samples.

Results

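The genes described here are 40 genes of cell division out of the 32285 genes counted in each library. They were listed by function, 17 for DNA replication in S phase, 19 for mitosis and 4 that belong to neither list, and matched by gene symbol; all 40 were found. S phase was represented by Pclaf, Tyms, Rrm1, Rrm2, Mcm2, Mcm3, Mcm4, Mcm5, Mcm6, Mcm7, Pcna, Gins2, Cdc6, Cdt1, Uhrf1, Tk1 and Dut. Mitosis was represented by Cdk1, Ccna2, Ccnb1, Ccnb2, Cdc20, Plk1, Aurka, Aurkb, Bub1, Bub1b, Cenpa, Cenpe, Cenpf, Kif11, Kif20a, Kif23, Nusap1, Tpx2 and Ube2c. Mki67, Top2a, Birc5 and Stmn1 were counted with neither list. The cells came from mouse tissue labelled as non-small cell lung cancer, in 3 libraries labelled PBS, PD-L1 and AI-Exo. The labels do not spell these names out and give no mouse strain, age, tumour model, dose or sort. The stated purpose was to compare tumour immune cells between treatments. Each group was 1 library, so differences between libraries have no replicates behind them and were not tested. Values in brackets are 95% intervals for counting error alone, and "higher" and "lower" give the size of a difference between these libraries.

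A cell that divides first copies its DNA and then separates the copies. The Mcm proteins form the ring that unwinds DNA at replication forks, Cdc6 and Cdt1 load that ring, and Gins2 belongs to the active helicase. Pcna is the clamp that holds DNA polymerase on its template and Pclaf binds it, while Rrm1, Rrm2, Tyms, Tk1 and Dut supply nucleotides and Uhrf1 maintains DNA methylation. In mitosis Cdk1 acts with the cyclins Ccna2, Ccnb1 and Ccnb2, Plk1 and the Aurora kinases drive spindle assembly, and Bub1 and Bub1b hold the checkpoint. Cenpa, Cenpe and Cenpf act at centromeres and kinetochores, Kif11, Kif20a and Kif23 are motors of the spindle and of cytokinesis, and Nusap1 and Tpx2 bind spindle microtubules. Cdc20 and Ube2c serve the ubiquitin ligase that ends mitosis. In tumours, activated T cells, natural killer (NK) cells, tissue macrophages and cancer cells can all divide, whereas mature neutrophils have left the cycle.

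The promoters of the lists carry different short motifs, shown here because the 2 lists are contrasted below. Of the 40 members, 33 had an entry in the RefSeq promoter table (build GRCm38.p6, 250 bases before to 50 after a start), with 35 promoters. Both strands were searched for an E2F motif (TTTCCCGC, TTTCGCGC, TTTGCCGC or TTTGGCGC), for the CHR motif TTTGAA and for CCAAT. An E2F motif stood in 8 of 17 S-phase promoters (47.1%), in 1 of 15 mitosis promoters (6.67%) and in 2.26% of all 32851 promoters in the table. The CHR motif stood in 1 of 17 S-phase promoters (5.88%), in 11 of 15 mitosis promoters (73.3%) and in 17.9% of all promoters. CCAAT stood in 70.6% of the S-phase promoters, 93.3% of the mitosis promoters and 37.4% of all. A match describes the letters of the window and was not tested as a site. The 170 bases before the start are printed for the 3 members of most unique molecular identifiers (UMIs, each counting 1 captured transcript) in each list whose motif lies wholly within those 170 bases. Capitals mark the E2F motif in the 3 S-phase genes and CHR and CCAAT in the 3 mitosis genes, on either strand.
Mcm6, chr1:128359706-128359875, minus strand: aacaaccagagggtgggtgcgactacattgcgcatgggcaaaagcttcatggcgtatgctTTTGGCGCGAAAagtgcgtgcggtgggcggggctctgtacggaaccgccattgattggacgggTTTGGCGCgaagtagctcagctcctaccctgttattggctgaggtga
Mcm7, chr5:138171884-138172053, minus strand: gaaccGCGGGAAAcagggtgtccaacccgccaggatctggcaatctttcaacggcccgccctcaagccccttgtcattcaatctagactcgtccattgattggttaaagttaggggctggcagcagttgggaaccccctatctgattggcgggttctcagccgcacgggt
Mcm5, chr8:75109339-75109508, plus strand: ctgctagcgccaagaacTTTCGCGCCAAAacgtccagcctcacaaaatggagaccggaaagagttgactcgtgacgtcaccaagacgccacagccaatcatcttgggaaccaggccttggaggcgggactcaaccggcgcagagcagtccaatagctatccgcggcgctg
Ube2c, chr2:164769759-164769928, plus strand: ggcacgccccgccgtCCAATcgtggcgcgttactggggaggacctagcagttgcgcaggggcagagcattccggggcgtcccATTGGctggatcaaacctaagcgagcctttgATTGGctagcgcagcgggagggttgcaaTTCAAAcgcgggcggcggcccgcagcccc
Cdk1, chr10:69352913-69353082, minus strand: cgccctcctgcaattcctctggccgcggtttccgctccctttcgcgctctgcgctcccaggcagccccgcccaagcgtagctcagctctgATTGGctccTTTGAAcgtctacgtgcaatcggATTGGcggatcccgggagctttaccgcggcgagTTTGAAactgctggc
Ccnb2, chr9:70421555-70421724, minus strand: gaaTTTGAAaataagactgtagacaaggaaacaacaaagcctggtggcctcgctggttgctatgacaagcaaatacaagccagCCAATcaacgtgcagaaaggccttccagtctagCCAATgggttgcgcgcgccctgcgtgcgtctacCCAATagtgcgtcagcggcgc
The longer capital stretches of Mcm6 and Mcm5 hold overlapping E2F motifs, 1 on each strand. The Cdk1 promoter was the single mitosis promoter with an E2F motif, left in lower case above, and the CCAAT motifs of the 3 Mcm genes are also in lower case.

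Barcodes with at least 500 UMIs, at least 200 genes and at most 20% mitochondrial UMIs numbered 9359 for the PBS library, 9697 for PD-L1 and 10457 for AI-Exo. Their medians were 4380.0, 3948.0 and 4425.0 UMIs. Between 23 and 33 of these barcode sequences were shared by any 2 libraries. Cell types were assigned by markers, none of which is a member: a barcode joined the type with most of its 6 markers detected, at least 2 and more than for any other type. T lineage barcodes were then split, and barcodes with at least 2 UMIs of Rag1, Rag2, Dntt, Arpp21 and Ptcra, which act in developing T cells, were called immature T. About the same share stayed without a type in each library, 10.3% in PBS against 10.4% in PD-L1 and 10.4% in AI-Exo. The leading genes of the types outside the marker lists fitted most names, for instance Gzmk and Nkg7 in CD8 T barcodes, Cd40lg in CD4 T barcodes and Lpl in alveolar macrophages. The tumour-like barcodes, 46, 23 and 45, were named from Rhox5, Hmga2 and keratins, and the labels give no marker that would identify the cancer cells.

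Because a deeper barcode shows more UMIs of any list, each barcode was thinned to 1000 UMIs, and barcodes with fewer (225, 309 and 318) were left out. A barcode with at least 3 summed member UMIs after thinning is called dividing here. This is a range of a score and not a cell type: 604, 655 and 658 barcodes had 2 member UMIs, just outside it, and 190, 190 and 228 had 3, just inside. Neutrophils served as the reference for a type that should lack these transcripts, and 1.65%, 0.665% and 1.64% of them were dividing by this measure. This reference was itself not level between libraries. The PD-L1 share was 0.403 times PBS [0.205-0.793] and the AI-Exo share 2.47 times PD-L1 [1.27-4.82], from 23, 13 and 25 dividing neutrophils. RNA free in the suspension could supply at most 119.3 member CPM (UMIs per 1000000 UMIs of a gate) in any gate. In CD8 T barcodes that limit was 26.8, 39.4 and 39.1 CPM, beside 1320.2, 1870.0 and 2612.8 CPM measured.

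Over all barcodes, 7.43% [6.90-7.99] were dividing in PBS against 8.26% [7.71-8.83] in PD-L1 and 8.68% [8.14-9.24] in AI-Exo. PD-L1 was 1.11 times PBS [1.01-1.23] and AI-Exo 1.17 times PBS [1.06-1.29]. Without thinning the shares were 37.5%, 36.5% and 39.3%, in another order. The sum joined different cells. Immature T barcodes numbered 830 in PBS and 835 in PD-L1 and 2 in AI-Exo, and they made up 37.8% and 43.6% of the dividing barcodes of PBS and PD-L1. None of the 880 dividing barcodes of AI-Exo was immature T, with an exact interval up to 0.418%. Without the immature T barcodes the dividing share was 5.08% in PBS against 5.10% in PD-L1 and 8.68% in AI-Exo (34.8%, 33.4% and 39.3% unthinned). AI-Exo was then 1.71 times PBS [1.53-1.91] and PD-L1 was 1.01 times PBS [0.883-1.15]. Weighting 18 types by 1 make-up pooled over the libraries gave 4.42%, 5.09% and 8.21%. Whether the immature T cells came from the tumour or from tissue taken with it is not given by the labels.

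In AI-Exo the dividing barcodes were spread over other cells. Alveolar macrophages made up 19.4% of them (7.66% in PBS and 7.61% in PD-L1), CD8 T barcodes 16.5% (5.30% and 8.26%) and NK barcodes 10.3% (1.33% and 2.45%). CD4 T barcodes made up 9.09% in AI-Exo, 5.45% in PBS and 3.48% in PD-L1.

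**Figure D1:**
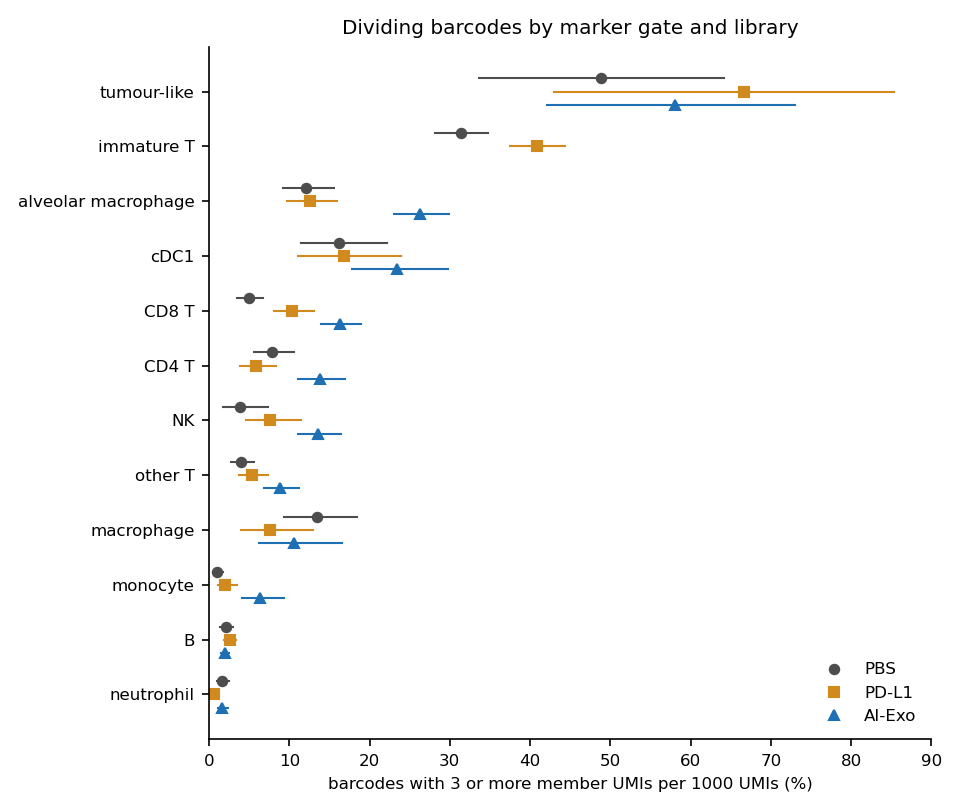
Share of dividing barcodes (at least 3 member UMIs after thinning to 1000 UMIs) in each marker-gated type and library, in percent, with exact 95% intervals for counting error only. CD8 T, NK and alveolar macrophage barcodes of AI-Exo lie above those of PBS and PD-L1, with overlapping NK intervals for PD-L1 and AI-Exo. B barcodes of the 3 libraries overlap.

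The members were highest in immature T barcodes for 26 of the 40, in tumour-like barcodes for 13 and in alveolar macrophages for 1, Bub1b, by the mean CPM over the libraries. Of the tumour-like barcodes, 48.9% [33.7-64.2] were dividing in PBS against 66.7% [43.0-85.4] in PD-L1 and 58.1% [42.1-73.0] in AI-Exo. Ube2c, the ubiquitin-conjugating enzyme of late mitosis, stood at 268.3, 582.4 and 383.5 CPM there, and the kinetochore gene Cenpf at 163.3, 174.1 and 190.2 CPM. The intervals of the tumour-like shares overlap, and 9 members of 40 were at least 1.5-fold higher in PD-L1 than in PBS and 0 lower (2.70% and 11.0% of all genes), against 0 of 39 higher or lower in AI-Exo over PBS (1.73% and 2.46%). Mki67 in tumour-like barcodes, the marker of cycling cells that coats mitotic chromosomes, stood at 86.0, 56.9 and 82.8 CPM. Neutrophils had the lowest level for 19 members. There Pcna and Kif23 made up 42.0%, 47.5% and 30.0% of the member UMIs, so those 2 genes were counted also in cells with few other members. Pcna alone made up 33.5%, 37.1% and 23.0%. Stmn1 (9.23%, 6.60% and 9.59%) and Cenpa (6.44%, 8.96% and 7.14%) were near Kif23 (8.55%, 10.3% and 7.04%).

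Differences between libraries are given as log2 of CPM plus 10 over CPM plus 10, which pulls the ratio of low genes toward 0. A member was called higher or lower at 1.5-fold, among members of at least 10 CPM in the mean of both libraries. A member under 10 CPM in either library passes only if it is higher in the other, which fixes the direction of any call. Over all barcodes 0 of 38 members were called in PD-L1 over PBS, with a median of 0.30, where 1.12% of all genes were higher and 1.15% lower. For AI-Exo over PBS 0 of 36 were called, with a median of 0.05 (1.77% and 1.89% of all genes). Pclaf over all barcodes stood at 96.6, 147.7 and 90.1 CPM, highest in PD-L1, whereas without immature T barcodes it stood at 60.5, 59.1 and 90.1 CPM, highest in AI-Exo. Without immature T barcodes 0 of 34 members were called in PD-L1 over PBS, with a median of 0.04 (1.76% and 1.05%). For AI-Exo over PBS 2 of 35 were higher and 0 lower there, with a median of 0.37 and Mki67 highest at 0.63 (1.39% and 1.59%).

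CD8 T cells are the cytotoxic arm of the T lineage. In CD8 T barcodes the dividing share was 4.93% [3.48-6.76] in PBS (36 of 730), 10.4% [8.11-13.1] in PD-L1 (64 of 615) and 16.3% [13.9-18.9] in AI-Exo (145 of 889). The 3 intervals do not overlap. PD-L1 was 2.11 times PBS [1.42-3.13], AI-Exo 3.31 times PBS [2.33-4.70] and AI-Exo 1.57 times PD-L1 [1.19-2.06]. Unthinned, the shares were 43.1%, 52.0% and 56.4%, and the gate's median depths were 4564.0, 4487.0 and 5021.5 UMIs. In AI-Exo over PBS, 25 of 35 members were higher and 0 lower, with a median of 0.74, where 2.74% of all genes were higher and 1.74% lower. For PD-L1 against PBS, 5 of 34 were higher and 0 lower, with a median of 0.34 (1.44% and 0.746% of all genes). Both comparisons use the same PBS library.

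By role, AI-Exo was at least 1.5-fold above PBS for 13 of 15 mitosis genes and 8 of 16 S-phase genes measured in CD8 T barcodes. Birc5, the survivin subunit of the chromosomal passenger complex, stood at 41.3 [35.3-47.9], 76.4 [67.8-85.8] and 137.8 [128.8-147.4] CPM in the order PBS, PD-L1 and AI-Exo. The intervals of the 3 libraries do not overlap for this gene, and the ratios to PBS were 0.75 and 1.53. Ube2c in CD8 T barcodes stood at 35.1 [29.6-41.2], 71.6 [63.3-80.7] and 109.6 [101.5-118.2] CPM. The cyclin Ccnb2 stood at 14.1 [10.7-18.2], 29.2 [24.0-35.3] and 56.3 [50.5-62.5] CPM. Mki67 stood at 30.1 [25-35.8], 44.5 [38.0-51.8] and 81.4 [74.5-88.8] CPM. For each of these, PBS was lowest and AI-Exo highest, with no overlap of the intervals. These intervals count UMIs and leave out the spread between barcodes, of which 36, 64 and 145 were dividing.

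Among the S-phase genes in CD8 T barcodes the ratios ran from 0.17 to 1.03, and among the mitosis genes from 0.34 to 1.46. Rrm2, the inducible subunit of ribonucleotide reductase, stood at 20.5, 31.6 and 52.2 CPM, with an AI-Exo over PBS ratio of 1.03. Pclaf stood at 83.5, 108.3 and 175.9 CPM, with a ratio of 0.99. The helicase genes Mcm3 (0.73), Mcm6 (0.64) and Mcm7 (0.64) passed 1.5-fold, while Mcm2 (0.30), Mcm4 (0.51) and Mcm5 (0.47) did not. Pcna stood at 135.5, 155.8 and 177.8 CPM with a ratio of 0.37, and the loading factor Cdt1 at 32.9, 36.2 and 38.2 CPM with a ratio of 0.17. Cdt1 had the smallest ratio of the S-phase genes. Stmn1, a microtubule regulator, stood at 148.1, 246.7 and 342.0 CPM, and Top2a, which untangles DNA, at 60.1, 84.2 and 126.9 CPM.

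**Figure D2:**
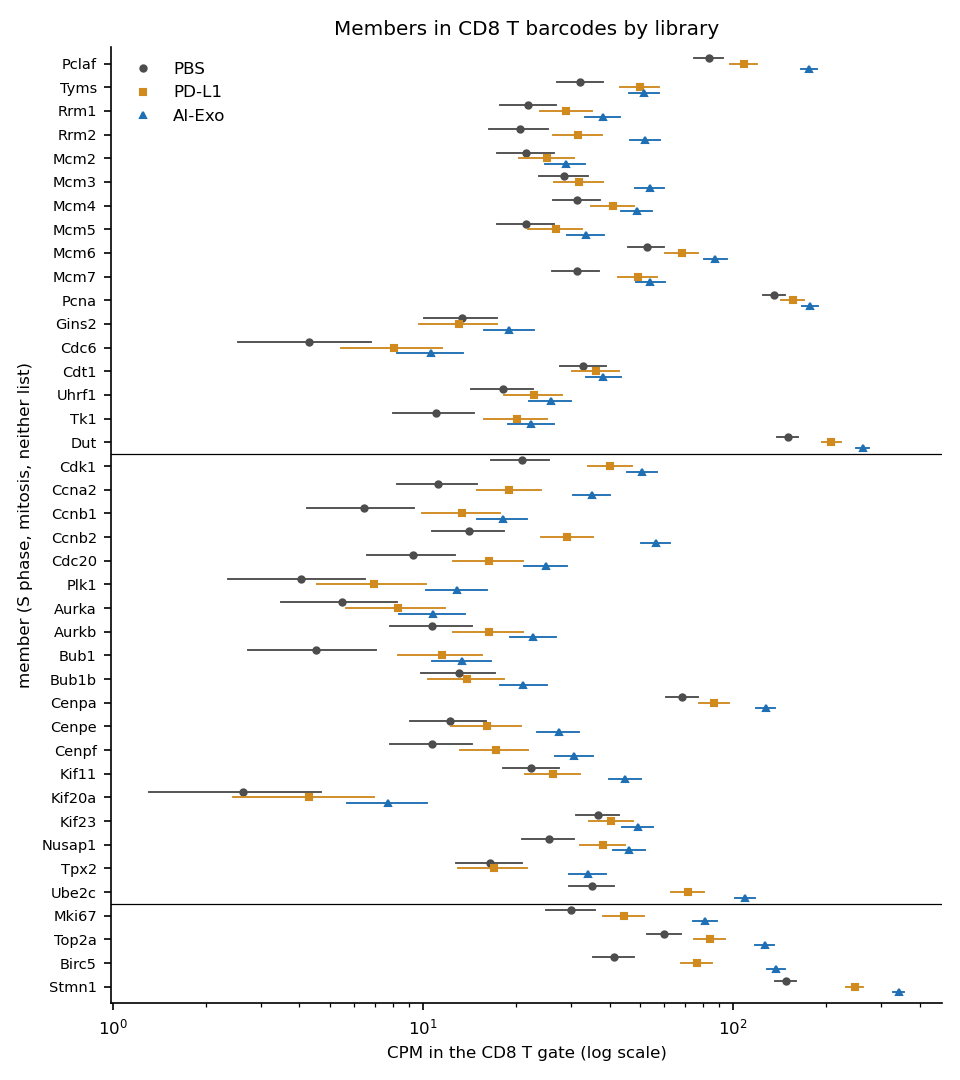
Levels of the 40 members in CD8 T barcodes by library, in CPM on a log axis. Exact 95% intervals are for counting error of UMIs only and leave out the spread between barcodes. Ube2c, Birc5, Mki67 and Ccnb2 are separated between all 3 libraries, while Cdt1 lies between 32.9 and 38.2 CPM in all of them.

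Marker lists of other cells were also read in CD8 T barcodes. In dividing CD8 T barcodes the NK list, which holds the cytotoxic genes Gzma and Prf1, summed to 591.7 CPM in PBS (6 of 6 genes detected) and 1733.0 CPM in AI-Exo (5 of 6). The alveolar macrophage list stood at 76.7 CPM in AI-Exo. Immature T genes stood at 1.98 CPM in PBS and 0.568 CPM in AI-Exo, with no dividing CD8 T barcode of either library at 2 UMIs. Barcodes with a doublet score above 0.15 made up 2.78%, 4.69% and 6.90% of the dividing and 4.32%, 5.63% and 7.93% of the other CD8 T barcodes. The part of these in the difference was not tested.

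In CD4 T barcodes the order of PBS and PD-L1 turned with the setting. The dividing share was 7.81% [5.56-10.6] in PBS against 5.82% [3.87-8.35] in PD-L1 and 13.8% [11.1-16.9] in AI-Exo (43.3%, 46.6% and 48.4% unthinned). AI-Exo was 1.77 times PBS [1.22-2.56], and PD-L1 was 0.745 times PBS [0.462-1.20] at this setting, an interval that holds 1. That ratio was 1.02 at 2 member UMIs, 1.02 when thinned to 2000 UMIs and 1.08 without thinning. PD-L1 had 27 dividing CD4 T barcodes, so its levels rest on few cells. Against PBS, PD-L1 had 0 of 34 members higher and 11 lower, with a median of -0.42 (2.06% of all genes higher and 1.99% lower). Ube2c in CD4 T barcodes stood at 79.0 [68.4-90.8], 19.7 [14.7-25.8] and 105.9 [95.8-116.7] CPM in that order. Top2a stood at 80.6, 30.3 and 109.0 CPM, and Cdk1, the kinase that starts mitosis, at 32.7, 9.83 and 45.1 CPM. Of the lower members, 7 of 14 measured mitosis genes and 2 of 16 S-phase genes were counted. Pcna (143.3, 145.6 and 170.5 CPM) and Mcm6 (36.3, 35.5 and 66.8 CPM) were nearly level between PBS and PD-L1.

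In AI-Exo over PBS the CD4 T counts by list were unlike those of PD-L1: 7 of 16 S-phase genes were higher, and of the mitosis genes 0 were higher and 1, Ccnb1, was lower at -0.59. In all, 10 of 35 members were higher and 1 lower, with a median of 0.39 (2.55% and 2.27% of all genes). Mcm5 had a ratio of 0.90 (14.0 and 34.7 CPM), Mcm3 0.83 and Uhrf1 0.77. Mki67 stood at 35.5 and 76.7 CPM, a ratio of 0.93, and Ube2c had a ratio of 0.38. Whether CD4 and CD8 T barcodes differ in their response was not tested.

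Over all mature T barcodes (CD8, CD4, regulatory, gamma-delta and T barcodes with neither or both of CD4 and CD8), the share was 5.63% [4.66-6.73], 7.35% [6.19-8.65] and 13% [11.6-14.4] (39.7%, 45.4% and 47.0% unthinned). AI-Exo was 2.3 times PBS [1.87-2.84] and PD-L1 1.31 times PBS [1.02-1.66]. In AI-Exo over PBS, 16 of 35 members were higher and 0 lower, with a median of 0.56, where 1.71% of all genes were higher and 0.898% lower. PD-L1 over PBS had 0 of 34 called in either direction (0.680% and 0.495% of all genes), with a median of 0.10. Mki67 in mature T barcodes stood at 28.9 [25.7-32.3], 31.7 and 71.5 [67.2-76.0] CPM. A single UMI of an immature T gene was present in 115, 112 and 19 mature T barcodes, and in 7 of 113, 13 of 133 and 2 of 293 dividing ones.

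NK barcodes numbered 237, 260 and 676, and 3.91% [1.80-7.30], 7.54% [4.60-11.5] and 13.6% [11.1-16.5] of them were dividing (26.6%, 40.4% and 46.9% unthinned). AI-Exo was 3.48 times PBS [1.78-6.79], and the PBS share rests on 9 dividing barcodes. In AI-Exo over PBS, 25 of 33 members were higher and 0 lower, with a median of 0.95 (3.78% and 3.34% of all genes). Some of the 33 passed the filter of 10 CPM only through AI-Exo and could not be called lower. Among these were Ccna2 (1.03 and 29.5 CPM in PBS and AI-Exo), Cdc20 (2.07 and 23.2 CPM) and Tpx2 (5.17 and 34.6 CPM). The 25 higher members were 12 of 14 measured mitosis genes and 9 of 15 S-phase genes, with Mki67, Top2a, Birc5 and Stmn1. Birc5 in NK barcodes stood at 23.8 [15.1-35.7], 41.3 and 114.6 [104.4-125.4] CPM, Mki67 at 21.7, 29.4 and 93.1 CPM, and Pclaf at 34.1, 62.0 and 131.1 CPM. These 3 were at least 1.68 higher in AI-Exo on the log2 scale. Cdt1 (31.0, 23.0 and 28.8 CPM), Mcm6 (71.3, 60.4 and 80.2 CPM) and Ube2c (58.9, 48.5 and 75.1 CPM) differed by less than 1.5-fold. In PD-L1 over PBS, 7 of 27 members were higher and 1 lower, with a median of 0.23 (3.80% and 3.57% of all genes), and the share ratio of 1.93 had an interval of 0.890 to 4.17.

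Alveolar macrophages, the resident macrophages of the airspaces that renew themselves by division, had 12.1% [9.19-15.6] dividing barcodes in PBS against 12.6% [9.76-16.0] in PD-L1 and 26.3% [23.0-29.9] in AI-Exo. Unthinned shares were 67.1%, 69.8% and 81.8%, and median depths were 10363.0, 11660.0 and 13093.5 UMIs. PD-L1 was 1.04 times PBS [0.735-1.48] and AI-Exo 2.17 times PBS [1.63-2.89]. In AI-Exo over PBS, 17 of 39 members were higher and 0 lower, with a median of 0.53 (1.91% and 1.07% of all genes). PD-L1 over PBS had 0 of 36 called (0.678% and 0.235%), with a median of -0.09.

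By role, 10 of 16 S-phase genes and 3 of 19 mitosis genes were at least 1.5-fold higher in these alveolar macrophages. Dut, which keeps uracil out of DNA, stood at 39.3 [33.8-45.4], 44.2 and 88.2 [82.2-94.5] CPM in alveolar macrophages. Rrm2 stood at 32.0, 38.5 and 70.2 CPM, Pclaf at 78.9, 63.5 and 152.3 CPM, and Mcm6 at 23.3, 31.0 and 48.0 CPM. PBS and PD-L1 were close for these genes and AI-Exo lay above both. The mitosis genes past 1.5-fold were Bub1b (46.3, 59.7 and 84.9 CPM), Kif11 (ratio 0.63) and Cdk1 (0.62). Bub1b was also counted in alveolar macrophages with no UMI of the other members after thinning, at 34.4, 41.7 and 57.5 CPM. Cdk1 stood at 3.60, 7.11 and 4.87 CPM in such barcodes. Ube2c stood at 80.0, 54.8 and 102.6 CPM, a ratio of 0.32, and Aurka had the smallest ratio of the mitosis genes, 0.15. Dividing alveolar macrophages carried their own list at 4523.1 CPM in PBS and 4532.0 CPM in AI-Exo. In AI-Exo 7.6% of the dividing and 8.58% of the other alveolar macrophages had a doublet score above 0.15.

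Immature T barcodes could be compared in PBS and PD-L1. The dividing share was 31.4% [28.2-34.7] in PBS and 40.9% [37.5-44.4] in PD-L1, a ratio of 1.30 [1.14-1.49] (64.8% and 69.5% unthinned). In PD-L1 over PBS, 14 of 40 members were higher and 0 lower, with a median of 0.50 (1.33% and 1.56% of all genes), and 9 of 17 S-phase genes were among them against 4 of 19 mitosis genes. Mcm3 stood at 85.5 [79.1-92.3] CPM in PBS and 157.5 [149.8-165.6] CPM in PD-L1, the largest ratio of the 40, 0.81. Pclaf stood at 363.5 and 617.0 CPM, and Ccna2, the cyclin of S phase and early mitosis, at 55.1 and 100.9 CPM. Of the mitosis genes, Plk1 (13.5 and 28.4 CPM), Ccnb1 (36.6 and 61.9 CPM) and Cdk1 (75.5 and 119.4 CPM) were the other 3 past 1.5-fold, whereas Ccnb2 (122.1 and 136.7 CPM), Cenpa (164.2 and 188.2 CPM) and Bub1b (62.5 and 62.7 CPM) differed by less.

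Monocytes had few dividing barcodes, 12 of 1208 in PBS (0.993%), 13 of 634 in PD-L1 (2.05%) and 23 of 362 in AI-Exo (6.35%), with unthinned shares of 35.5%, 33.4% and 54.0%. The AI-Exo share was 6.4 times PBS [3.21-12.7], and 18 of 19 members were higher (5.01% of all genes higher and 3.27% lower). Most of the 19 were under 10 CPM in PBS, such as Cdk1 (1.76 and 18.3 CPM), and passed the filter only through AI-Exo. These could not be called lower. Of the members at 10 CPM or more in PBS, Cdt1 (0.62), Dut (1.28), Cenpa (0.98), Ube2c (1.66) and Stmn1 (2.21) were higher. Pcna (0.55) was not called. Stmn1 in monocytes stood at 20.8, 32.6 and 132.0 CPM and Pclaf at 6.37, 10.5 and 64.9 CPM. Genes of granulocyte and monocyte precursors (Mpo, Elane, Ctsg, Prtn3 and Ms4a3) were all 5 detected in the dividing AI-Exo monocytes at 1133.4 CPM, with at least 2 UMIs in 15 of 23 barcodes, against 4 of 12 in PBS and 0 of 13 in PD-L1. Their part in the difference was not tested.

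In B, macrophage, cDC1 and neutrophil barcodes the AI-Exo share was not separated from PBS: the ratios were 0.930 [0.60-1.44] (1.16 unthinned), 0.788 [0.448-1.39], 1.44 [0.964-2.16] and 0.997 [0.569-1.75]. B barcodes were 2.12%, 2.57% and 1.97% dividing (23.2%, 26.4% and 26.9% unthinned), against 1.65%, 0.665% and 1.64% of neutrophils. In B barcodes 4 of 22 members were lower in AI-Exo than in PBS and 0 higher (0.781% and 0.260% of all genes). These were Pclaf (42.6 and 20.4 CPM), Aurkb (16.1 and 6.09 CPM), Dut (80.9 and 47.2 CPM) and Stmn1 (65.5 and 38.7 CPM). Macrophages outside the alveolar gate were 13.4%, 7.59% and 10.6% dividing, with 32, 12 and 16 barcodes. There 9 of 37 members were lower in PD-L1 than in PBS and 0 higher (4.0% and 3.35% of all genes). Among them Cenpf stood at 35.5 CPM in PBS and 5.07 CPM in PD-L1, and Mki67 at 49.7 and 23.3 CPM. The macrophage share ratio of 0.565 had an interval of 0.30 to 1.06. In cDC1, the dendritic cells that cross-present antigen, 0 of 37 members were called in AI-Exo over PBS (3.70% and 0.792% of all genes), and 16.2%, 16.8% and 23.4% of barcodes were dividing. Of the 25 dividing AI-Exo neutrophils, 20% had a doublet score above 0.15, and their median depth was 15851.0 UMIs against 3045.5 in the others.

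**Figure D3:**
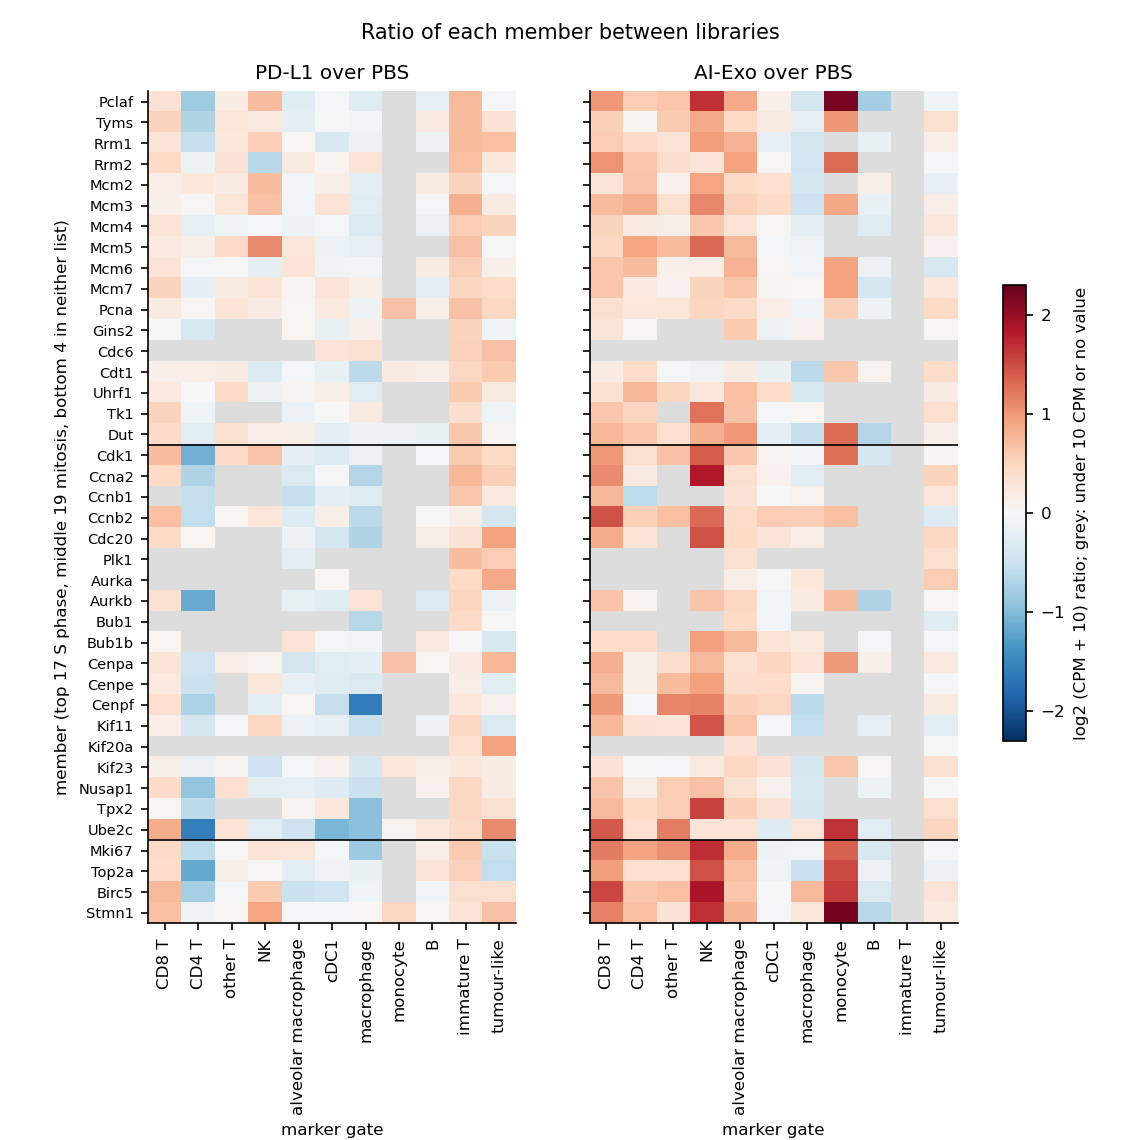
Log2 ratios of CPM plus 10 for the members (rows, by list) in each type (columns), for PD-L1 over PBS and AI-Exo over PBS. Values of members under 10 CPM in the mean of the 2 libraries are grey. CD8 T, NK and alveolar macrophage columns are above 0 for nearly all members in AI-Exo over PBS, and the CD4 T column of PD-L1 over PBS is below 0 for most mitosis genes.

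Both lists were counted in the same barcodes, so the log2 ratio of summed S-phase over summed mitosis UMIs is not set by depth. Over all barcodes it was 0.72 [0.70-0.74] in PBS against 0.90 [0.88-0.92] in PD-L1 and 0.53 [0.51-0.55] in AI-Exo, from 50787, 68731 and 53398 S-phase UMIs. Without immature T barcodes it was 0.68, 0.75 and 0.53. In CD8 T barcodes it was 1.11 [1.01-1.20], 0.91 [0.83-0.99] and 0.67 [0.61-0.72], so mitosis genes took a larger share of the UMIs in AI-Exo. The gate also holds barcodes that were not dividing. In dividing CD8 T barcodes alone the ratio was 0.78 in PBS and 0.44 in AI-Exo. In dividing CD8 T barcodes, 13.9% [4.67-29.5], 21.9% [12.5-34.0] and 33.8% [26.2-42.1] had more mitosis than S-phase UMIs, with overlapping intervals. NK barcodes gave 1.07 [0.85-1.30], 1.19 [1.01-1.38] and 0.64 [0.56-0.71].

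CD4 T barcodes had another order, 0.56 [0.46-0.67] in PBS against 1.24 [1.11-1.37] in PD-L1 and 0.85 [0.77-0.92] in AI-Exo. In alveolar macrophages the ratio was 0.36, 0.60 and 0.50, lowest in PBS. Immature T barcodes had 0.79 [0.75-0.82] in PBS and 1.04 [1.01-1.06] in PD-L1. Tumour-like barcodes were the single type below 0 in every library, at -0.20 [-0.27--0.13], -0.50 [-0.58--0.41] and -0.30 [-0.37--0.23], with more mitosis than S-phase UMIs. These values rest on 46, 23 and 45 barcodes, and the intervals count UMIs and leave out the spread between barcodes. RNA free in the suspension had ratios of 0.83, 0.89 and 0.55, in the same order as all barcodes.

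**Figure D4:**
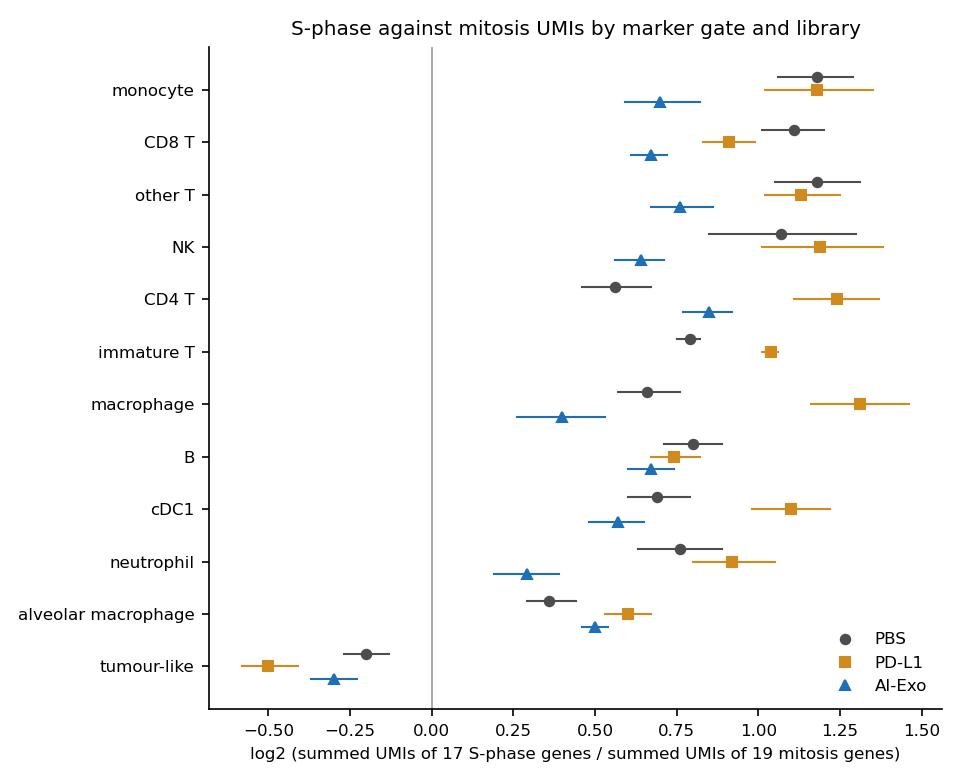
Log2 of summed S-phase over summed mitosis UMIs by type and library, with exact 95% intervals for counting error of UMIs only. Tumour-like barcodes lie below 0 in all 3 libraries, and CD8 T barcodes go from 1.11 in PBS to 0.67 in AI-Exo.

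Genes of the same pathway outside the 40 were read from 4 further lists. In CD8 T barcodes, AI-Exo over PBS, 4 of 19 measured genes of other replication and 12 of 22 of other mitosis were at least 1.5-fold higher (2.74% of all genes). Cdca8, borealin of the passenger complex, stood at 15.3, 35.9 and 61.6 CPM in that order. Cdc45, a helicase partner, stood at 6.92, 13.9 and 17.9 CPM. In NK barcodes the counts were 8 of 18 and 14 of 18 (3.78% of all genes), with Cdca8 at 8.27, 17.5 and 54.4 CPM. In alveolar macrophages they were 4 of 20 and 7 of 25 (1.91%), and Ckap2l, a spindle protein, stood at 25.8, 34.2 and 81.2 CPM. In CD4 T barcodes, PD-L1 over PBS, 6 of 16 other mitosis genes were lower (1.99% of all genes), Prc1 of the central spindle most, at 29.5 and 12.9 CPM. In immature T barcodes, PD-L1 over PBS, 4 of 24 and 3 of 31 were higher (1.33%), led by the ligase Lig1 at 90.6 and 152.3 CPM.

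Few genes that act at entry into the cycle passed 1.5-fold. In CD8 T barcodes 0 of 10 were higher and 2 lower in AI-Exo than in PBS (2.74% and 1.74% of all genes). The cyclin Ccnd3, which acts with Cdk4 and Cdk6 before S phase, stood at 377.9, 295.5 and 238.4 CPM. Myc stood at 139.1 CPM in PBS and 86.7 CPM in AI-Exo. Ccnd3 was also lowest of its list in CD4 T (-0.69), NK (-0.40), alveolar macrophage (-0.50) and B barcodes (-0.53), and over all barcodes (-0.56). Of 9 measured inhibitors of the cycle, 0 were called in AI-Exo over PBS in CD8 T, NK or alveolar macrophage barcodes (higher and lower, 2.74% and 1.74%, 3.78% and 3.34%, and 1.91% and 1.07% of all genes). In CD4 T barcodes the inhibitor Cdkn1a stood at 41.1, 71.8 and 62.8 CPM, a ratio of 0.68 in PD-L1 over PBS.

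Members differed in how closely they went with the rest. In mature T barcodes each member was compared between barcodes dividing by the other 39 and barcodes with none of them, after thinning. Pclaf separated these most, by 5.25 to 5.61 on the log2 scale over the 3 libraries (560.1 and 1.66 CPM in PBS), followed by Birc5 with 4.85 to 5.06. Cdt1 separated them least, by 0.75 to 0.96 (49.7 and 25.2 CPM in PBS), and Kif23 by 1.43 to 1.75. Pcna stood at 98.1 CPM in PBS barcodes with no UMI of the other members after thinning, and at 362.3 CPM in dividing ones. Dividing mature T barcodes were deeper, with medians of 6735.0, 7167.0 and 9782.0 UMIs. Those with no member UMI after thinning had 4146.0, 4442.0 and 4572.0.

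In the same comparison of mature T barcodes, 22 of 22 measured genes of other replication and 27 of 29 of other mitosis were higher in dividing barcodes of all 3 libraries, where 10.7% of all genes were higher and 3.99% lower. Among entry genes 9 of 12 were higher and 1, Ccnd3, was lower (230.1 and 462.6 CPM in PBS). Among inhibitors 2 of 9 were higher and 2 lower. The lower ones were Btg1 (831.4 and 1983.0 CPM in PBS) and Btg2 (681.7 and 1440.2 CPM), which slow the cycle in resting lymphocytes, and Cdkn2c was higher (58.3 and 15.7 CPM). Splitting dividing mature T barcodes by which member list led, 9 of 23 other replication genes were higher on the S-phase side and 0 on the mitosis side, and of other mitosis genes 0 and 7 of 32 (1.03% and 1.11% of all genes).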

How the data were processed

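Single cells of mouse tissue labelled non-small cell lung cancer were sequenced in 3 libraries, 1 per group, with polyA RNA and the 3′ chemistry of 10x Genomics, per the labels' protocols. The deposited values are raw counts of UMIs per gene and barcode, not normalized by the authors, and per the file headers they come from Cell Ranger 7.1.0. Version 3.0.2 is named in the submitters' processing notes. Build, annotation and intron handling were not given in the sources used here. All barcodes were present (840360, 794333 and 858023) with 68386729, 65997942 and 76512500 UMIs.

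Barcodes were filtered, gated and thinned as described above, in Python 3.11.15 with numpy 2.4.6, scipy 1.17.1 and pandas 2.3.3, and plotted with matplotlib 3.10.9. Gating used 20 marker lists. Doublets were scored with Scrublet in scanpy 1.11.5, whose automatic thresholds marked 0, 0 and 1 barcodes, so it did not work and doublets were kept. Scores above 0.15 covered 4.90%, 5.54% and 6.40%. Shares carry exact Clopper-Pearson intervals, sums exact Poisson intervals and ratios of shares log-normal intervals. Intervals of levels and of S-phase against mitosis ratios count UMIs and leave out the spread between barcodes. The calling steps were also run on simulated data, and the outcome is not given here. That run is therefore no evidence for the calls of the members. All 40 members were named, with the extremes and the most counted gene of each further list. Members, lists and markers were chosen with earlier results of these data known. Alternatives covered depth, thresholds, pseudocounts, doublets and members left out.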

Additional observations from a re-analysis of the deposited data

Results flagged for a closer look

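The members' median log2 ratio had opposite signs in different types for each pair of libraries. Among types with at least 50 barcodes in every library and at least 20 measured members, the highest and the lowest are given. Members under 10 CPM in either library enter these medians only when higher in the other. In PD-L1 over PBS the median log2 ratio of the members was 0.34 in CD8 T barcodes and -0.42 in CD4 T barcodes, and the difference was not tested. In AI-Exo over PBS the median was 0.95 in NK barcodes and -0.44 in ILC2 barcodes, and in AI-Exo over PD-L1 it was 1.03 in monocytes and -1.05 in ILC2 barcodes, also untested. The ILC2 gate held 65, 53 and 58 barcodes, with 1, 3 and 5 dividing after thinning, so its levels rest on few cells. Smaller types went further below 0: in AI-Exo over PBS the median was -1.60 in pDC barcodes (34, 42 and 28 barcodes) and -0.73 in gamma-delta T barcodes (29, 40 and 60), and in AI-Exo over PD-L1 it was -1.35 and -1.06.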

How the results depend on the processing

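With 1 library per group, differences between mice cannot be told apart from differences between groups, and all intervals cover counting error only. No paired analysis was possible because each group has 1 library. Of 99 recomputed share ratios, 76 stayed within the counting interval of the main ratio, 22 moved further and 1 whose interval excluded 1 reversed. In all, 6 ratios lay on the other side of 1, among them 2 for B (1.12 at 5 member UMIs and 1.16 without thinning, from 0.930) and 3 for PD-L1 in CD4 T (1.02 at 2 member UMIs, 1.02 at 2000 UMIs and 1.08 without thinning, from 0.745), all with a main interval that holds 1. Of 36 S-phase against mitosis differences, 29 stayed and 7 moved, and of 56 member counts, 37 stayed within 1.5 times and 19 did not. A minimum of 1000 UMIs gave no separate share, since thinning already needs it. The cause of each shift was not tested, except that thinning less leaves more UMIs per barcode.

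Without thinning, where a deeper barcode shows more member UMIs, the PD-L1 over PBS share ratio over all barcodes went from 1.11 to 0.974. AI-Exo over PBS went from 1.17 to 1.05 (1.05 at 2000 UMIs). With thinning kept and immature T barcodes left out these 2 ratios were 1.01 and 1.71. The other ratios without thinning were 1.18 in mature T (from 2.3), 1.21 for PD-L1 in CD8 T (from 2.11), 1.31 for AI-Exo in CD8 T (from 3.31), 1.76 in NK (from 3.48), 1.22 in alveolar macrophages (from 2.17), 1.07 in immature T (from 1.30) and 1.52 in monocytes (from 6.4). Thinning to 2000 UMIs gave 1.47 in mature T, 1.37 and 1.94 in CD8 T, 1.84 in NK and 2.61 in monocytes. At 2 member UMIs the ratios were 1.5 in mature T, 1.33 and 1.89 in CD8 T, 2.3 in NK and 3.14 in monocytes, and at 5 they were 3.24 in mature T and 18.4 in monocytes. Leaving out Stmn1, Pcna and Dut gave 2.91 in mature T and 12.5 in monocytes.

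The S-phase against mitosis difference of PD-L1 from PBS over all barcodes, 0.18, was 0.22 without Pcna and Dut and 0.34 in dividing barcodes alone. That of AI-Exo from PBS, -0.19, was -0.15 without Pcna and Dut, -0.16 without the 2 most counted genes of each list and -0.26 in dividing barcodes. In dividing barcodes alone it was -0.09 in mature T (from -0.23) and 0.30 for PD-L1 from PBS in immature T (from 0.25).

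Member counts over all barcodes went from 0 to 6 for PD-L1 over PBS at a pseudocount of 1, and from 0 to 2 for AI-Exo over PBS without immature T barcodes. At a pseudocount of 1 the counts were 25 in mature T (from 16), 12 for PD-L1 in CD8 T (from 5) and 17 lower for PD-L1 in CD4 T (from 11). At a pseudocount of 50 they were 5 in mature T, 8 for AI-Exo and 0 for PD-L1 in CD8 T, 2 lower in CD4 T, 11 in NK (from 25), 4 in alveolar macrophages (from 17) and 4 in immature T (from 14). At 2-fold they were 3 in mature T, 7 for AI-Exo (from 25) and 0 for PD-L1 in CD8 T, 4 lower in CD4 T, 15 in NK, 0 in alveolar macrophages and 0 in immature T.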

Other observations

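Genes outside the 40 were also compared between barcodes with at least 3 member UMIs and barcodes with none. Over all barcodes this was done without thinning. The first group (3507, 3538 and 4111 barcodes) is therefore wider than the dividing barcodes defined above. The 15 genes that differed most in every library included the tubulin gene Tuba1b, but also the macrophage genes Mrc1, C1qa, C1qb and C1qc. Tuba1b stood at 277.7, 358.6 and 274.9 CPM in the first group, in the order PBS, PD-L1 and AI-Exo, against 47.5, 44.7 and 45.9 CPM. C1qa, a subunit of complement C1q, stood at 386.7, 281.5 and 235.9 CPM in the first group against 90.3, 46.3 and 45.9 CPM. The first group was deeper, with medians of 8568.0, 7685.5 and 8328.0 UMIs against 2644.0, 2739.0 and 2903.5. It also holds another mix of cells than the rest. The part of depth and of that mix in these values was not tested.

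Within 1 type, where barcodes were thinned and dividing ones set against those with no member UMI after thinning, other genes led. In mature T barcodes the linker histone gene Hist1h1b stood at 405.8, 683.9 and 717.8 CPM in dividing barcodes against 27.4, 27.7 and 19.4 CPM, and the chromatin protein gene Hmgb2 at 2658.1, 2992.5 and 3209.4 CPM against 459.8, 385.5 and 430.5 CPM. In alveolar macrophages Hist1h1b stood at 234.2, 188.1 and 200.5 CPM against 4.79, 5.30 and 6.31 CPM, and Racgap1, which acts in cytokinesis, at 165.3, 131.4 and 145.1 CPM against 3.60, 1.87 and 3.44 CPM. In NK barcodes Cks1b, a partner of cyclin-dependent kinases, stood at 265.6, 224.6 and 309.7 CPM against 4.92, 9.92 and 12.5 CPM.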
